A study of Mus musculus with 8 samples.

Results

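The genes for matrix metalloproteinases (MMPs), ADAMs, ADAMTS proteinases and tissue inhibitors of metalloproteinases (TIMPs) were examined in mouse embryonic stem (ES) cells. Members were all symbols built from Mmp, Adam, Adamts or Timp, a number and at most 1 closing letter that stood in both count tables. This gave 79 members among 24421 genes, of which 23 were MMPs, 33 ADAMs, 19 ADAMTS genes and 4 TIMPs. The families were selected on the measured rise of Mmp12 in Ubc9-depleted cells, so that value is given as a description, without a test. All cells had spent 3 to 4 passages in 2i/LIF medium, which holds ES cells in the naive state, and polyA RNA was sequenced from 2 libraries in each of 4 groups. The Ubc9-depleted cells (v6.5 line) had 72 hours of doxycycline and were set against control cells of that line. The labels do not say whether these controls received doxycycline. H1 TKO cells lack the linker histone genes Hist1h1c, Hist1h1d and Hist1h1e, and were set against their own control cells. Their lines came from earlier work. Ubc9 is the E2 enzyme that joins the small protein SUMO to its targets, and linker histones bind the nucleosome and the DNA that leaves it.

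MMPs are zinc endopeptidases that are made as inactive proenzymes and, once processed, cut collagens, elastin, laminin and other proteins outside the cell. TIMPs bind their active site and block it. ADAMs sit in the plasma membrane and many release the outer part of neighbouring membrane proteins, while ADAMTS enzymes are secreted and cut proteoglycans and procollagens. In the early mouse embryo these genes are known mainly from trophoblast invasion and from the turnover of basement membranes.

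The deleted linker histone genes matched the labels. Hist1h1c, Hist1h1d and Hist1h1e had 0 counts in both H1 TKO libraries, against 100 to 231 counts in the H1 control libraries. Library totals lay between 44441713 and 102780141 counts, and levels are given in CPM (the usual library-scaled counts, here with edgeR's TMM factors). Ubc9-depleted library 1 stood apart: it had counts on 23462 genes, and the other 3 libraries of that table had counts on 18584 to 19591. Of 21 members that had no more than 1 count in either Ubc9 control, all 21 had counts in Ubc9-depleted library 1 (7 to 159, median 28) and 13 had counts in library 2 (0 to 15, median 1). For most of the members and lists that rest on this library, counts or calls are also given without it. Nothing in the labels states that the libraries in a group are separate cultures, so p-values measure the spread between libraries, which may be technical. In these bulk samples, fewer cells of a type and less RNA per cell cannot be told apart.

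**Figure D1:**
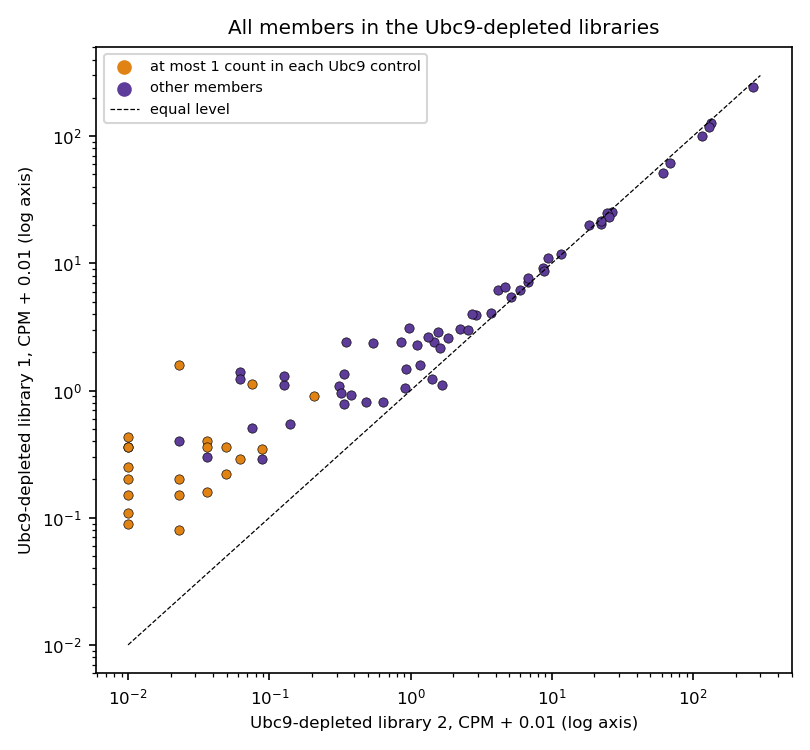
Levels of all 79 members in Ubc9-depleted library 1 (vertical, CPM + 0.01) against library 2 (horizontal, CPM + 0.01), both on log axes, with members at 1 count or less in each Ubc9 control in orange. All 21 orange members had counts in library 1 and 13 in library 2, so that most orange points lie above the dashed line of equal level.

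Few members reached a high level in these cells. Scaled also to exonic length (RPKM), the mean was at least 1 for 20 members in Ubc9-depleted cells and 15 in Ubc9 control cells, and for 14 in H1 TKO cells and 11 in H1 control cells. It was under 0.1 RPKM for 26, 46, 47 and 50 members in these groups. Adam19, a membrane sheddase that can release neuregulin, led in the Ubc9 line with 34.1 and 37.6 RPKM in Ubc9-depleted cells, against 38.3 and 39.4 RPKM in Ubc9 control cells. Next came 2 further sheddases and the inhibitor Timp1. Adam9 had 28.8 and 31.7 RPKM in Ubc9-depleted cells, against 25.4 and 26.4 RPKM in Ubc9 control cells. Adam10, the constitutive sheddase of Notch, had 25.8 and 27.2 RPKM in Ubc9-depleted cells, against 29.1 and 35.8 RPKM in Ubc9 control cells. In Ubc9-depleted cells Mmp12 came next to Timp1 by mean, with 13.8 and 16.0 RPKM, and neighbours in this order of 5 did not overlap. In the H1 table Timp1 was far above every other member. The values of Mmp11, Adam19, Adam9 and Adam10 overlapped in H1 control cells, so no order was read among them.

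Many members were higher in Ubc9-depleted cells, and most of those were low in the controls. A gene was called where edgeR's quasi-likelihood test gave a Benjamini-Hochberg adjusted p under 0.05 over all genes tested. In the Ubc9 comparison 55 members passed the filter on low counts and 24 did not. Mmp12 is left out of the counts of calls that use this comparison. Of the other 54, 27 were higher and 2 lower, with 25 not called, against a background of 21.1% of all genes tested called higher and 15.0% lower. The median log2 fold change was 1.20 over these 54 and 0.06 over all genes tested. A member near 0 in the controls passes the filter only if it is higher in depleted cells, so these counts carry that choice. Of 24 tested members under 0.5 CPM in the controls, 16 were higher, where 44.2% of all such genes were. Of 30 at 0.5 CPM or more, 11 were higher and 2 lower, where 15.5% of all such genes were higher. Without Ubc9-depleted library 1, 26 of 54 members tested were higher, against 19.0% of all genes. Without Ubc9-depleted library 2, 56 of 74 were higher, against 41.8% of all genes. Without control library 1 the count was 11 of 74, against 6.43% of all genes, and without control library 2 it was 11 of 75, against 6.09%.

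In the H1 comparison 41 members passed the filter, 38 did not, and 20 of those had 0 counts in all 4 libraries. Of the 41, 9 were higher, 5 lower and 27 not called, against 8.59% of all genes higher and 8.43% lower. The median log2 fold change was 0.42 over these members and -0.02 over all genes tested. Mmp12 is among the 41 and among the 9. Of the members called, Mmp12, Adamts2 and Mmp25 passed the filter only through the H1 TKO libraries. Mmp28 passed it only through the H1 control libraries. These counts and the median carry that choice. The counts of members called changed with 1 library left out. The share of all genes called in those fits is not given here, so that change is not read as a result about the members.

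**Figure D2:**
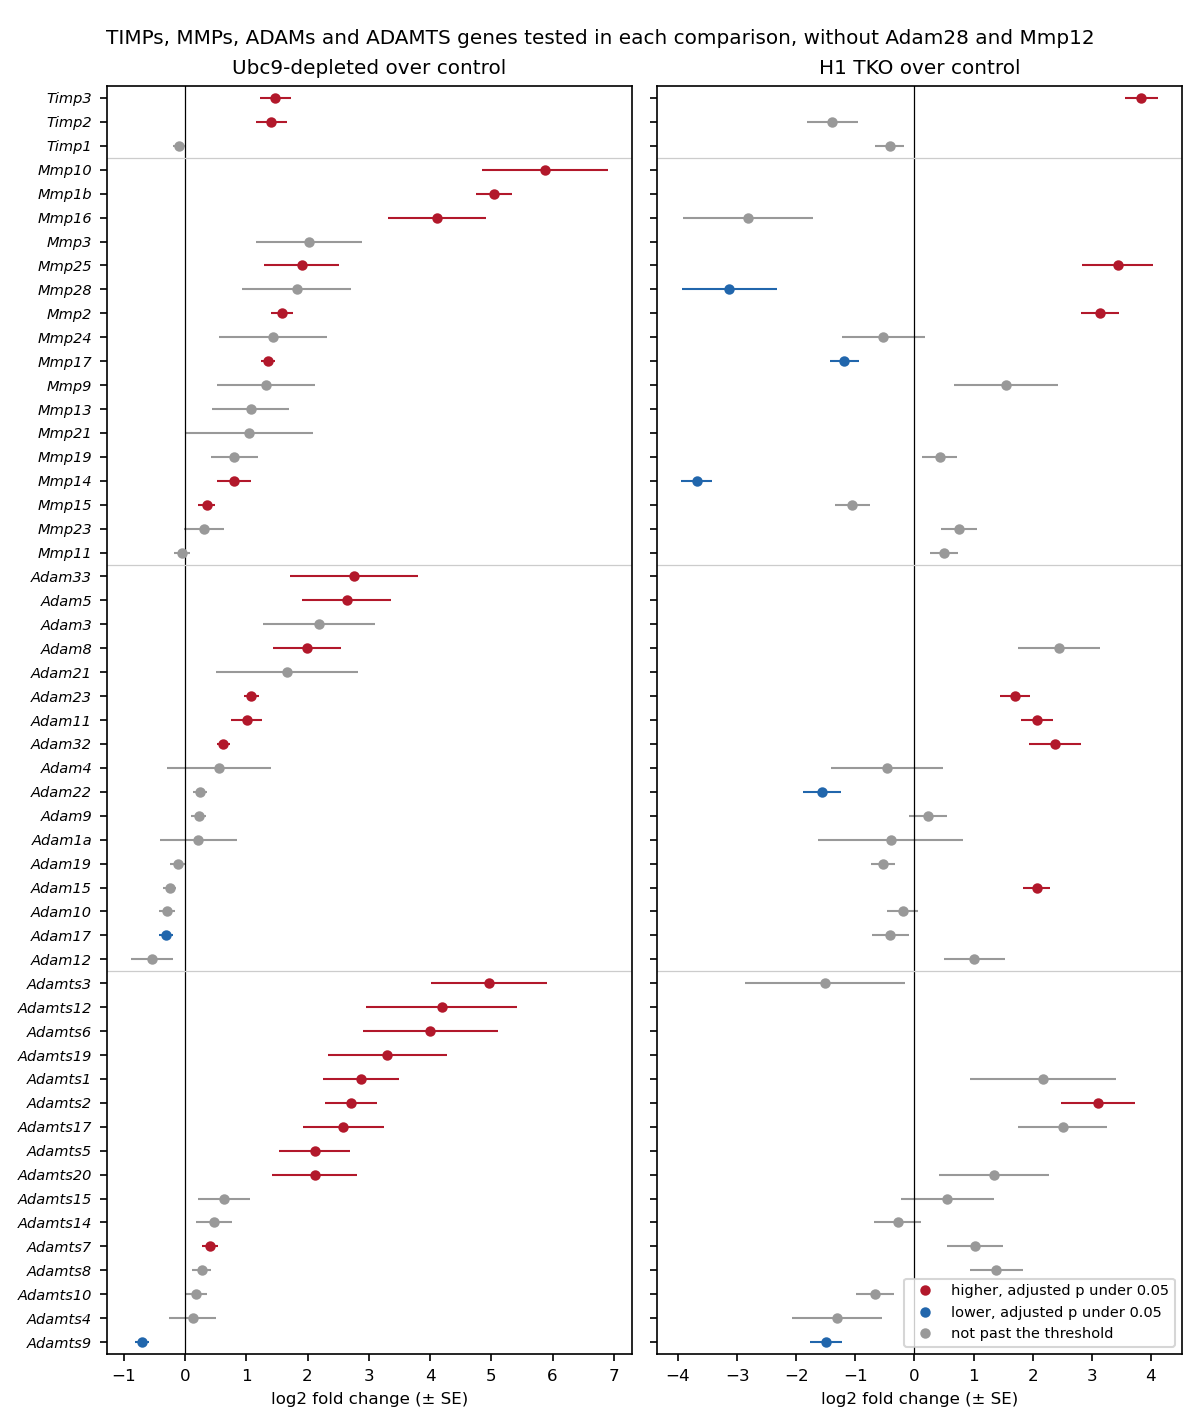
Log2 fold changes (± SE from the edgeR fit) of members that passed the filter in the Ubc9 comparison, by class, for Ubc9-depleted over control (left) and H1 TKO over control (right), where a gap means not tested. Mmp12 and Adam28, whose controls held no more than 3 counts in all in a comparison, are left out. Red points crowd the left panel, with 2 blue ones (Adam17 and Adamts9), whereas the right panel holds both colours among its MMPs. On the left, the red points of Mmp10, Mmp16, Adamts3, Adamts6, Adamts12 and Adamts19 passed the filter only through the depleted libraries. On the right, Adamts2 and Mmp25 passed it only through the H1 TKO libraries and Mmp28 only through the H1 control libraries. Their colours carry that choice.

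Mmp12, the macrophage elastase, lies in a group of 10 MMP genes within 427 kb of chromosome 9 (chr9:7272514-7699585, GRCm38, GENCODE M21). In order these are Mmp13, Mmp12, Mmp1b, Mmp3, Mmp1a, Mmp10, Mmp8, Mmp27, Mmp20 and Mmp7. The group holds genes of collagenases, stromelysins, matrilysin, the tooth enamel proteinase enamelysin (Mmp20) and the elastase itself. GENCODE M21 lists Mmp1a as a polymorphic pseudogene. Mmp12 had 99.95 and 116 CPM in Ubc9-depleted cells (10007 and 8864 counts), against 1.20 and 1.24 CPM in Ubc9 control cells (117 and 114 counts). Both depleted libraries were far above both controls, and the log2 fold change was 6.47. In the H1 table, which did not serve to choose the families, Mmp12 had 63 and 101 counts in H1 TKO cells (1.44 and 1.54 CPM), against 1 and 0 counts in H1 control cells. The groups did not overlap there either. The ratio of counts summed over libraries and scaled for depth was 169 (95% counting interval 29.8 to 6701, counting error only). Mmp12 passed the filter on low counts there only through the H1 TKO libraries, so no p is given.

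Promoter windows are shown for 4 genes of this group because they carry the same short motif in front of the start site while their levels differ. Windows run from 250 bases before to 50 after a RefSeq start (GRCm38.p6), and TGANTCA, the binding motif of AP-1 (dimers of Fos and Jun proteins), is in capitals. This motif reads the same on both strands. Mmp12 has 2 starts in the table, and only the window of the second (chr9:7347124-7347423, plus strand) holds it, 44 bases upstream. The window of Mmp1b lies at chr9:7387977-7388276 on the minus strand, that of Mmp10 at chr9:7502092-7502391 on the plus strand and that of Mmp1a at chr9:7463891-7464190 on the plus strand. The motif begins 93, 63 and 73 bases upstream of these starts.
Mmp12: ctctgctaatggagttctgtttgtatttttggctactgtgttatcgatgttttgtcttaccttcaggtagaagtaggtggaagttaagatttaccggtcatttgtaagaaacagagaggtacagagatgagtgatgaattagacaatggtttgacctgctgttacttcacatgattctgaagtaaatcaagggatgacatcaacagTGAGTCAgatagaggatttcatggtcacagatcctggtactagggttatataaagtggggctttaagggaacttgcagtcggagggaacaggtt
Mmp1b: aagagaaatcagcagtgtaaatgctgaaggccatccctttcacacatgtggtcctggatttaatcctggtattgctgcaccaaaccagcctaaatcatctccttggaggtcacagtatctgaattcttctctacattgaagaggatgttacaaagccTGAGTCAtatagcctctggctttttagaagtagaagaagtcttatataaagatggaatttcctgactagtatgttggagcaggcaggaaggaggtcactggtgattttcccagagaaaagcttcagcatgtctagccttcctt
Mmp10: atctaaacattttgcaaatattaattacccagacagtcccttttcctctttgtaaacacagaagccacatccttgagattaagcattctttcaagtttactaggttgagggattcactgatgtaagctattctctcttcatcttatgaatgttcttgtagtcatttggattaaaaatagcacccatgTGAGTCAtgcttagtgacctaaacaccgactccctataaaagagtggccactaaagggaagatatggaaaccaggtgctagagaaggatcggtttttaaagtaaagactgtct
Mmp1a: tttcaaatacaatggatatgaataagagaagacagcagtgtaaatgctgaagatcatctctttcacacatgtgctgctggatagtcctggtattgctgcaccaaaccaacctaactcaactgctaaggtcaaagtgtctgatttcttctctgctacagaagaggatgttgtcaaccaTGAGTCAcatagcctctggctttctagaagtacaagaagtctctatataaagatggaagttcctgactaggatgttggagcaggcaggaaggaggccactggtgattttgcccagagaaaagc
Of the 10 genes in the group, 8 had the motif in a window (all but Mmp8 and Mmp27), against 8.97% of all 27025 genes in the promoter table and 5 of the other 39 members found in it. The 5 were Adam19, Adam1b, Adam20, Adam25 and Adam29. A match describes the letters in these windows and no binding was measured.

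Of the 4 genes shown, Mmp12, Mmp1b and Mmp10 were higher in Ubc9-depleted cells and Mmp1a stayed near 0. Mmp1b, a rodent duplicate of collagenase 1, had 7.62 and 6.74 CPM in Ubc9-depleted cells, against 0.206 and 0.228 CPM in Ubc9 control cells. Its log2 fold change was 5.04 ± 0.30 (SE, adjusted p 1.18e-13 in edgeR's quasi-likelihood test). Its value is uncertain, because 157 of its 1449 exonic bases (10.8%) overlap Mmp12 on the opposite strand and the strand setting of the counting is not given in the sources used here. Mmp10 (stromelysin 2) had 1.22 and 1.40 CPM in Ubc9-depleted cells (122 and 107 counts), against 0.0412 and 0 CPM in Ubc9 control cells (4 and 0 counts). The depth-scaled ratio was 61.4 (95% counting interval 23.6 to 227), and no p is given, since Mmp10 passed the filter only through the depleted libraries. For both genes the depleted libraries were alike and lay above the controls, and the call of Mmp1b held with each library left out. Mmp1a had 19 and 1 counts in Ubc9-depleted cells, against 0 and 1 counts in Ubc9 control cells.

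The rest of the group was not called, or not tested, in the Ubc9 comparison. Mmp3 (stromelysin 1) had 0.799 and 0.629 CPM in Ubc9-depleted cells, against 0.185 and 0.163 CPM in Ubc9 control cells. Mmp13 (collagenase 3) had 1.10 and 1.65 CPM in Ubc9-depleted cells, against 0.350 and 0.956 CPM in Ubc9 control cells. Neither was called, with adjusted p of 0.0716 and 0.19 in edgeR's quasi-likelihood test, although their groups did not overlap. Mmp7, Mmp8, Mmp27 and Mmp20 had 14 to 42 counts in Ubc9-depleted library 1, 0 to 3 in library 2 and 0 or 1 in the controls, and were not tested. In the H1 table every gene of the group other than Mmp12 had between 0 and 4 counts per library. Around the group, 10 further genes of the tables lie within its span or 0.5 Mb of it, and 8 were tested in each comparison. Over all genes tested, 21.1% were higher and 15.0% lower in the Ubc9 comparison, and 8.59% and 8.43% in the H1 comparison. In the Ubc9 comparison 1 of the 8 was higher (Cep126, 0.52 on the log2 scale) and 0 lower by edgeR. In the H1 comparison 0 were higher and 1 lower (Birc3). These were named after their values were seen.

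**Figure D3:**
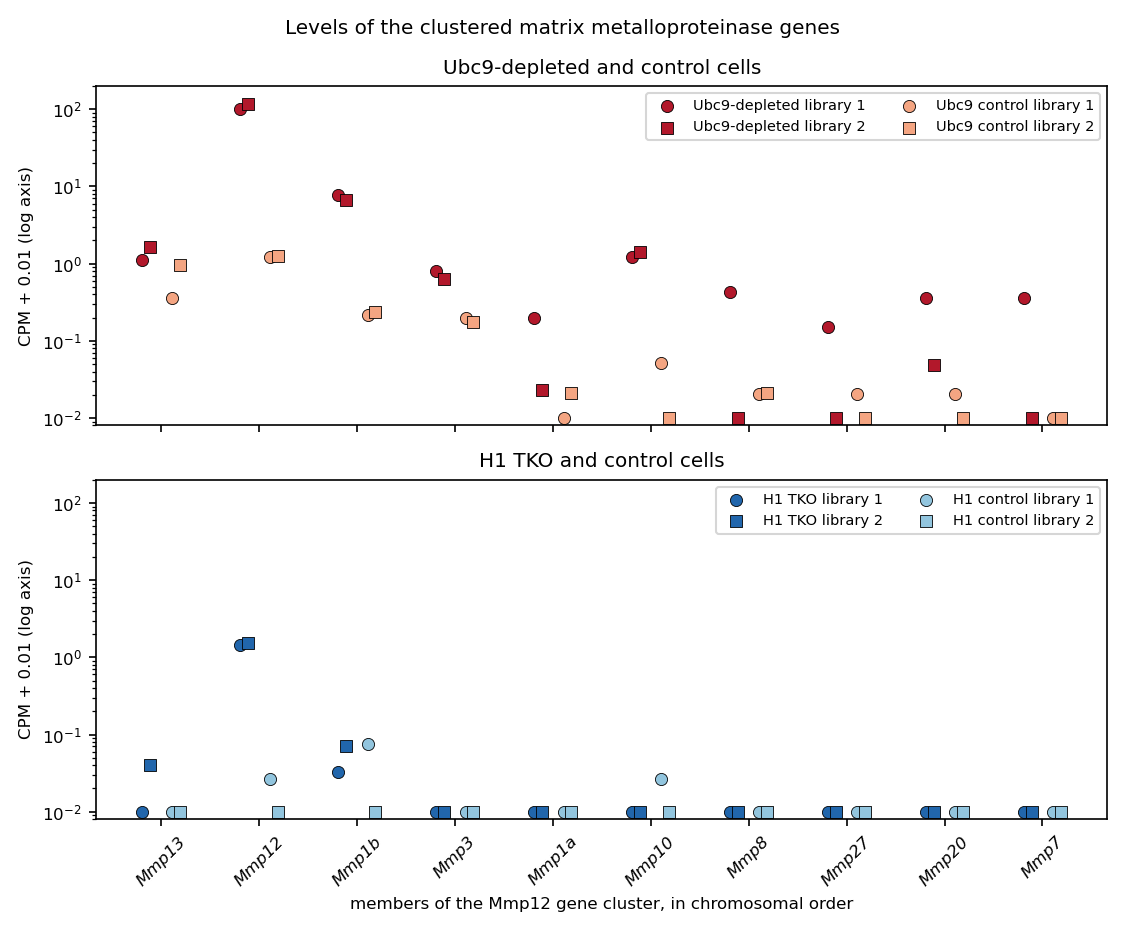
Levels (CPM + 0.01, log axis) of the 10 clustered MMP genes in chromosomal order, with 2 libraries per group, circles for library 1 and squares for library 2, in the Ubc9 comparison (top) and the H1 comparison (bottom). Mmp12, Mmp1b and Mmp10 stand far above their controls in both Ubc9-depleted libraries, and Mmp3 and Mmp13 less so. In the H1 panel only Mmp12 lies above 0.1 CPM, with 1.44 and 1.54 CPM.

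Because Mmp12 is named for macrophages, markers of that cell type were read beside it. The 12 markers summed to 28.1 and 27.0 CPM in Ubc9-depleted cells and to 17.3 and 17.6 CPM in Ubc9 control cells, and to 46.5 and 54.8 CPM in H1 TKO cells and 20.3 and 34.5 CPM in H1 control cells. Cd68, a lysosomal protein, made up the largest share. In the Ubc9 comparison 2 of 6 tested were higher (Mrc1 and Fcer1g) and 0 lower, against 21.1% and 15.0% of all genes. These calls come from the fit that includes Ubc9-depleted library 1, and calls without it are not given here for this list. In the H1 comparison 0 of 4 were called by edgeR, against 8.59% of all genes higher and 8.43% lower. The leukocyte gene Ptprc had 0.789 and 0.0131 CPM in Ubc9-depleted cells, against 0 and 0.0217 CPM in Ubc9 control cells. Lysozyme (Lyz2) was at 0.00999 and 0.0131 CPM in Ubc9-depleted cells and 0 in Ubc9 control cells. Ptprc, Lyz2 and the F4/80 gene Adgre1 had 0 counts in all 4 H1 libraries, and 6 and 4 of the 12 markers were at 0 in the H1 TKO libraries, against 4 and 5 in the H1 control libraries.

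Gelatinase A (Mmp2), which cuts denatured collagen and type IV collagen, was higher in both comparisons. It had 8.69 and 8.76 CPM in Ubc9-depleted cells, against 3.16 and 2.65 CPM in Ubc9 control cells (log2 fold change 1.59 ± 0.17, adjusted p 3.21e-08 in edgeR's quasi-likelihood test). In H1 TKO cells it had 11.8 and 9.03 CPM, against 1.41 and 0.931 CPM in H1 control cells (3.14 ± 0.33, adjusted p 0.00167 in edgeR's quasi-likelihood test). Both pairs of groups were well separated and both calls held with each library left out. The median log2 fold change of all tested genes of chromosome 8, where Mmp2 lies, was -0.53 in the H1 comparison, the lowest of any chromosome. Gelatinase B (Mmp9) was not called in either comparison (adjusted p 0.207 and 0.273 in edgeR's quasi-likelihood test).

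The membrane-type MMPs (Mmp14, Mmp15, Mmp16, Mmp17, Mmp24 and Mmp25), which are anchored at the cell surface, differed from gene to gene. For 4 of the 6 (Mmp14, Mmp15, Mmp16 and Mmp17) the effects of the comparisons differed by edgeR's interaction test. All 4 were higher for Ubc9 minus H1, where 8.08% of all genes tested were. The interaction calls of Mmp15 and Mmp16 were each lost with at least 1 library left out. Mmp16 passed the filter of that test only through the groups where it was high. In the Ubc9 comparison 5 of 6 were higher and 0 lower, against 21.1% and 15.0% of all genes tested. In the H1 comparison 1 of 6 was higher and 2 lower, against 8.59% and 8.43% of all genes. These counts include Mmp16 (Ubc9) and Mmp25 (H1), which passed those filters only through the groups where they were high. Mmp14, which activates the Mmp2 proenzyme, had 4.10 and 3.69 CPM in Ubc9-depleted cells, against 2.44 and 2.04 CPM in Ubc9 control cells (0.80 ± 0.28, adjusted p 0.0285 in edgeR's quasi-likelihood test). This call was lost without either control library (adjusted p up to 0.56 in edgeR) and in DESeq2 (adjusted p 0.147). In H1 TKO cells Mmp14 had 1.55 and 1.24 CPM, against 16.2 and 19.6 CPM in H1 control cells (-3.68 ± 0.27, adjusted p 0.000652 in edgeR's quasi-likelihood test). It was the largest fall of any member called in that comparison, and it held with each library left out. The difference of the log2 effects, Ubc9 minus H1, was 4.46 ± 0.31 (adjusted p 2.7e-05 in edgeR's interaction test).

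Mmp17, held in the membrane by a lipid anchor, also moved in opposite directions. It had 21.7 and 22.4 CPM in Ubc9-depleted cells, against 9.03 and 8.18 CPM in Ubc9 control cells (1.36 ± 0.11, adjusted p 6.71e-11 in edgeR's quasi-likelihood test). It had 16.8 and 14.98 CPM in H1 TKO cells, against 29.1 and 43.0 CPM in H1 control cells (-1.18 ± 0.25, adjusted p 0.0209 in edgeR's quasi-likelihood test). The groups did not overlap in either table, but the H1 call was lost without either TKO library (adjusted p up to 0.25 in edgeR). Mmp16 had 1.59 and 1.17 CPM in Ubc9-depleted cells, against 0.134 and 0.0217 CPM in Ubc9 control cells (159 and 89 against 13 and 2 counts). It passed the filter through the depleted libraries, and its call was lost without control library 2 (adjusted p 0.14 in edgeR). In the H1 table it was not called, at 0.114 and 0.0153 CPM in H1 TKO cells and 0.476 and 0.388 CPM in H1 control cells. Mmp25, a neutrophil enzyme first called leukolysin, was higher in both. It had 2.29 and 1.10 CPM in Ubc9-depleted cells, against 0.566 and 0.337 CPM in Ubc9 control cells (1.91 ± 0.61, adjusted p 0.0185 in edgeR's quasi-likelihood test), a call lost without either control library. It had 1.76 and 1.71 CPM in H1 TKO cells, against 0.197 and 0.116 CPM in H1 control cells (3.44 ± 0.60). Mmp25 passed the H1 filter only through the H1 TKO libraries, so no p is given there. Mmp15, on chromosome 8, was higher by 0.35 ± 0.14 in Ubc9-depleted cells (adjusted p 0.0476 in edgeR's quasi-likelihood test), and this was lost with any library left out. In the H1 table Mmp15 was not called, at 5.66 and 4.19 CPM in H1 TKO cells and 8.60 and 11.8 CPM in H1 control cells. Its log2 fold change there was -1.05 ± 0.29 (adjusted p 0.0505 in edgeR's quasi-likelihood test), beside a median of -0.53 over chromosome 8. Mmp24 was not called in either comparison.

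Of the other MMPs, none was called in the Ubc9 comparison and Mmp28 (epilysin) alone was lower in H1 TKO cells. It had 0.183 and 0.0915 CPM in H1 TKO cells, against 1.69 and 0.679 CPM in H1 control cells (-3.13 ± 0.81), and lost its call in 3 of 4 leave-outs. Mmp28 passed the H1 filter only through the H1 control libraries, so no p is given. Mmp11 (stromelysin 3), the most abundant MMP of the H1 cells by length-scaled level, was not called in either comparison. Its level was 13.7 and 15.3 RPKM in H1 TKO cells and 8.44 and 12.1 RPKM in H1 control cells.

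Among the inhibitors, Timp3 was higher in both comparisons, Timp2 in the Ubc9 comparison alone, and Timp1, the most abundant, in neither. Timp3, a TIMP that stays bound to the extracellular matrix, had 5.44 and 5.16 CPM in Ubc9-depleted cells, against 1.81 and 2.01 CPM in Ubc9 control cells (1.47 ± 0.26, adjusted p 5.51e-05 in edgeR's quasi-likelihood test). It had 16.4 and 15.9 CPM in H1 TKO cells, against 0.919 and 1.34 CPM in H1 control cells (3.84 ± 0.28, adjusted p 0.000673 in edgeR's quasi-likelihood test). Libraries within a group were close, the groups lay far apart, and both calls held with each library left out. The effects differed by -2.39 ± 0.31, Ubc9 minus H1 (adjusted p 0.0007 in edgeR's interaction test). Of its exonic bases, 1733 (21.3%) overlap Syn3, in whose intron Timp3 lies, on the opposite strand.

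Timp2, which inhibits Mmp2 and also helps Mmp14 to activate it, had 6.45 and 4.68 CPM in Ubc9-depleted cells, against 2.07 and 2.13 CPM in Ubc9 control cells (1.41 ± 0.25, adjusted p 8.22e-05 in edgeR's quasi-likelihood test). In the H1 table it stood lower without passing the threshold, at 0.936 and 0.732 CPM in H1 TKO cells and 2.07 and 2.29 CPM in H1 control cells (adjusted p 0.0727 in edgeR's quasi-likelihood test). The effects differed by 2.78 ± 0.46 (adjusted p 0.0028 in edgeR's interaction test). Timp1 had 19.997 and 18.2 CPM in Ubc9-depleted cells, against 20.8 and 19.9 CPM in Ubc9 control cells, and these overlapped. It had 85.4 and 92.04 CPM in H1 TKO cells, against 94.7 and 143 CPM in H1 control cells. Timp4 was hardly detected, with 28 and 4 counts in Ubc9-depleted cells and 0 in both Ubc9 controls, and 1 and 6 counts in H1 TKO cells and 0 in both H1 controls.

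**Figure D4:**
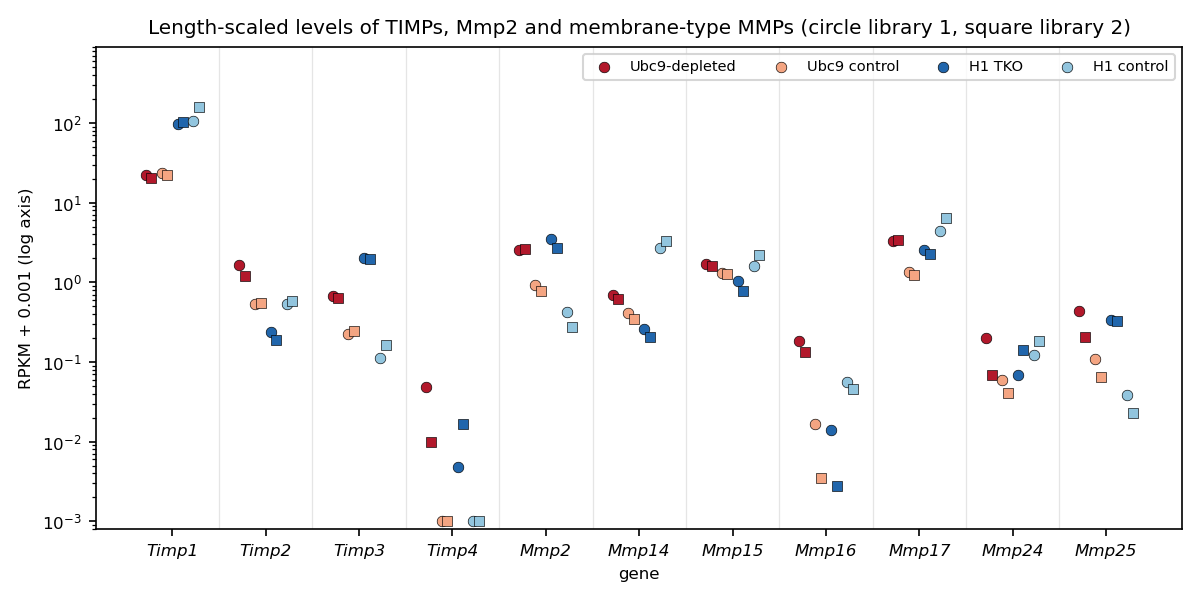
Length-scaled levels (RPKM + 0.001, log axis) of the 4 TIMPs, Mmp2 and the 6 membrane-type MMPs, with circles for library 1 and squares for library 2 of each group, Ubc9-depleted, Ubc9 control, H1 TKO and H1 control from left to right. Mmp14 is lower in H1 TKO than in H1 control cells (0.26 and 0.207 against 2.71 and 3.28 RPKM) while Timp3 and Mmp2 are higher.

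The 9 ADAM sheddases gave 3 higher, 1 lower and 5 not called in the Ubc9 comparison, against 21.1% of all genes higher and 15.0% lower. The 3 include Adam28, which passed the filter only through the depleted libraries. The lower one was Adam17, which releases TNF and ligands of the EGF receptor. It had 61.9 and 68.4 CPM in Ubc9-depleted cells, against 78.7 and 82.7 CPM in Ubc9 control cells (-0.31 ± 0.12, adjusted p 0.0372 in edgeR's quasi-likelihood test), and lost its call in 3 of 4 leave-outs. Adam8, a sheddase of leukocytes, had 2.17 and 1.61 CPM in Ubc9-depleted cells, against 0.525 and 0.424 CPM in Ubc9 control cells (1.99 ± 0.56, adjusted p 0.0083 in edgeR's quasi-likelihood test, lost without either control). Adam28 and Adam33, the other 2, were low. Adam28 had 89 and 15 counts in Ubc9-depleted cells, against 1 and 1 in Ubc9 control cells, a depth-scaled ratio of 55.8 (95% counting interval 15.1 to 466). Adam33 had 140 and 4 counts in Ubc9-depleted cells, against 6 and 14 in Ubc9 control cells, so the groups overlapped and its call was lost without Ubc9-depleted library 1.

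In the H1 comparison 1 of 7 sheddases tested was called, against 8.59% of all genes higher and 8.43% lower. Adam15, found at cell junctions, had 75.5 and 77.9 CPM in H1 TKO cells, against 15.5 and 21.1 CPM in H1 control cells (2.07 ± 0.22, adjusted p 0.00184 in edgeR's quasi-likelihood test). In the Ubc9 table it had 25.3 and 26.9 CPM in Ubc9-depleted cells and 31.1 CPM in both Ubc9 control libraries. The effects differed by -2.34 ± 0.24 (adjusted p 0.00017 in edgeR's interaction test). Of its exonic bases 1263 (20.6%) overlap a gene on the opposite strand, 4731419I09Rik, which has no row of its own in the tables.

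The ADAMs that lack a working active site, Adam11, Adam22 and Adam23, serve as receptors for secreted LGI proteins at nerve cells. Adam23 had 51.5 and 61.7 CPM in Ubc9-depleted cells, against 25.9 and 27.4 CPM in Ubc9 control cells (1.08 ± 0.12, adjusted p 1.6e-08 in edgeR's quasi-likelihood test). It had 14.3 and 11.96 CPM in H1 TKO cells, against 3.71 and 4.33 CPM in H1 control cells (1.71 ± 0.25, adjusted p 0.00583 in edgeR's quasi-likelihood test). Both calls held with each library left out. Adam11 had 6.203 and 4.14 CPM in Ubc9-depleted cells, against 2.83 and 2.32 CPM in Ubc9 control cells (1.01 ± 0.26, adjusted p 0.00314 in edgeR's quasi-likelihood test, lost without either control). It had 19.4 and 24.1 CPM in H1 TKO cells, against 4.20 and 6.11 CPM in H1 control cells (2.08 ± 0.27, adjusted p 0.00371 in edgeR's quasi-likelihood test). Adam22 went the other way in the H1 table, with 1.67 and 1.98 CPM in H1 TKO cells, against 6.16 and 4.67 CPM in H1 control cells (-1.57 ± 0.32, adjusted p 0.0191 in edgeR's quasi-likelihood test, lost without either TKO library). It was not called in the Ubc9 comparison, and the effects differed by 1.79 ± 0.29 (adjusted p 0.0024 in edgeR's interaction test).

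The 21 ADAMs known from testis, sperm and epididymis were mostly near 0: 15 did not pass the filter in the Ubc9 comparison, and 11 had 0 counts in all 4 H1 libraries. The most abundant was Adam32, a testis gene on chromosome 8. It had 24.9 and 24.6 CPM in Ubc9-depleted cells, against 15.8 and 16.3 CPM in Ubc9 control cells (0.62 ± 0.11, adjusted p 3.58e-05 in edgeR's quasi-likelihood test). It had 3.84 and 3.17 CPM in H1 TKO cells, against 0.476 and 0.873 CPM in H1 control cells (2.38 ± 0.44, adjusted p 0.014 in edgeR's quasi-likelihood test). Neither call was lost with any library left out. Adam5, a sperm surface gene, was higher in Ubc9-depleted cells at 1.46 and 0.917 CPM, against 0.206 and 0.174 CPM in Ubc9 control cells (2.64 ± 0.73, adjusted p 0.00764 in edgeR's quasi-likelihood test, lost without either control).

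Of the 19 ADAMTS genes, 16 were tested in the Ubc9 comparison, and 10 were higher and 1 lower, against 21.1% and 15.0% of all genes. The 10 include Adamts3, Adamts6, Adamts12 and Adamts19, which passed the filter only through the depleted libraries. The lower one, Adamts9, which cuts versican and aggrecan, was lower in both comparisons. It had 23.2 and 25.4 CPM in Ubc9-depleted cells, against 39.7 and 39.6 CPM in Ubc9 control cells (-0.70 ± 0.11, adjusted p 9.67e-06 in edgeR's quasi-likelihood test), a call that held with each library left out. It had 5.87 and 4.16 CPM in H1 TKO cells, against 14.7 and 13.6 CPM in H1 control cells (-1.497 ± 0.27, adjusted p 0.0112 in edgeR's quasi-likelihood test, 0.16 without H1 TKO library 2). The median over chromosome 6, where it lies, was -0.44 in the H1 comparison. Adamts2, which removes the amino-terminal propeptide of procollagen, was higher in both. It had 3.99 and 2.74 CPM in Ubc9-depleted cells, against 0.648 and 0.380 CPM in Ubc9 control cells (2.70 ± 0.43, adjusted p 2.24e-05 in edgeR's quasi-likelihood test). It had 2.72 and 1.39 CPM in H1 TKO cells, against 0.312 and 0.155 CPM in H1 control cells (3.10 ± 0.63), a call lost without H1 TKO library 1. Adamts2 passed the H1 filter only through the H1 TKO libraries, so no p is given there.

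Most of the other higher ADAMTS genes were low, and several differed between the depleted libraries. Adamts3, a second procollagen proteinase, had 2.40 and 0.341 CPM in Ubc9-depleted cells, against 0.0103 and 0.0760 CPM in Ubc9 control cells (240 and 26 against 1 and 7 counts). It passed the filter only through the depleted libraries, and no p is given. The proteoglycanase Adamts1 had 3.10 and 0.969 CPM in Ubc9-depleted cells, against 0.226 and 0.326 CPM in Ubc9 control cells (2.88 ± 0.62, adjusted p 0.00102 in edgeR's quasi-likelihood test). The aggrecanase Adamts5 had 2.65 and 1.32 CPM in Ubc9-depleted cells, against 0.607 and 0.304 CPM in Ubc9 control cells (2.12 ± 0.58, adjusted p 0.00658 in edgeR's quasi-likelihood test). In each of these the depleted libraries lay above both controls, with library 1 well above library 2. Adamts17 followed the same course, at 2.40 and 0.851 CPM in Ubc9-depleted cells and 0.247 and 0.293 CPM in Ubc9 control cells (adjusted p 0.00415 in edgeR's quasi-likelihood test). Adamts1, Adamts5 and Adamts17 lost their calls without either control. The calls of Adamts6, Adamts12 and Adamts20 were lost without either control and also without Ubc9-depleted library 1. Adamts6 and Adamts12 passed the filter only through the depleted libraries. Adamts7, better expressed, had 11.8 and 11.6 CPM in Ubc9-depleted cells, against 9.19 and 8.47 CPM in Ubc9 control cells (0.41 ± 0.12, adjusted p 0.0113 in edgeR's quasi-likelihood test, 0.253 in DESeq2, lost without either control).

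Of the 40 members other than Mmp12 that were tested in both comparisons, 10 were called in both. Adam11, Adam23, Adam32, Adamts2, Mmp2, Mmp25 and Timp3 were higher in both (7 of 40, against 3.64% of all genes tested in both). Of these, Adamts2 and Mmp25 passed the H1 filter only through the H1 TKO libraries. Adamts9 was lower in both (1 of 40, against 2.61%). Mmp14 and Mmp17 were higher in Ubc9-depleted and lower in H1 TKO cells, and 2.00% of all genes moved in opposite directions. The difference of the log2 effects, Ubc9 minus H1, was tested for 51 members other than Mmp12. It was higher for 8 and lower for 4, against 8.08% and 6.43% of all genes tested. The 8 were Adam22, Mmp14, Mmp15, Mmp16, Mmp17, Mmp1b, Mmp28 and Timp2, and the 4 were Adam15, Adam32, Mmp2 and Timp3. Mmp1b had 0 to 4 counts in the H1 libraries and was not tested there, so its value rests on the Ubc9 libraries. Mmp16 passed the filter only through the groups where it was high. The calls of Mmp1b, Mmp2, Mmp15, Mmp16 and Mmp28 were each lost with at least 1 library left out, and the other 7 held in every leave-out. The counts of 8 and 4 also changed with 1 library left out, and the share of all genes called in those fits is not given here. The comparisons were made with different library kits, and kit and comparison cannot be told apart in levels set side by side.

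**Figure D5:**
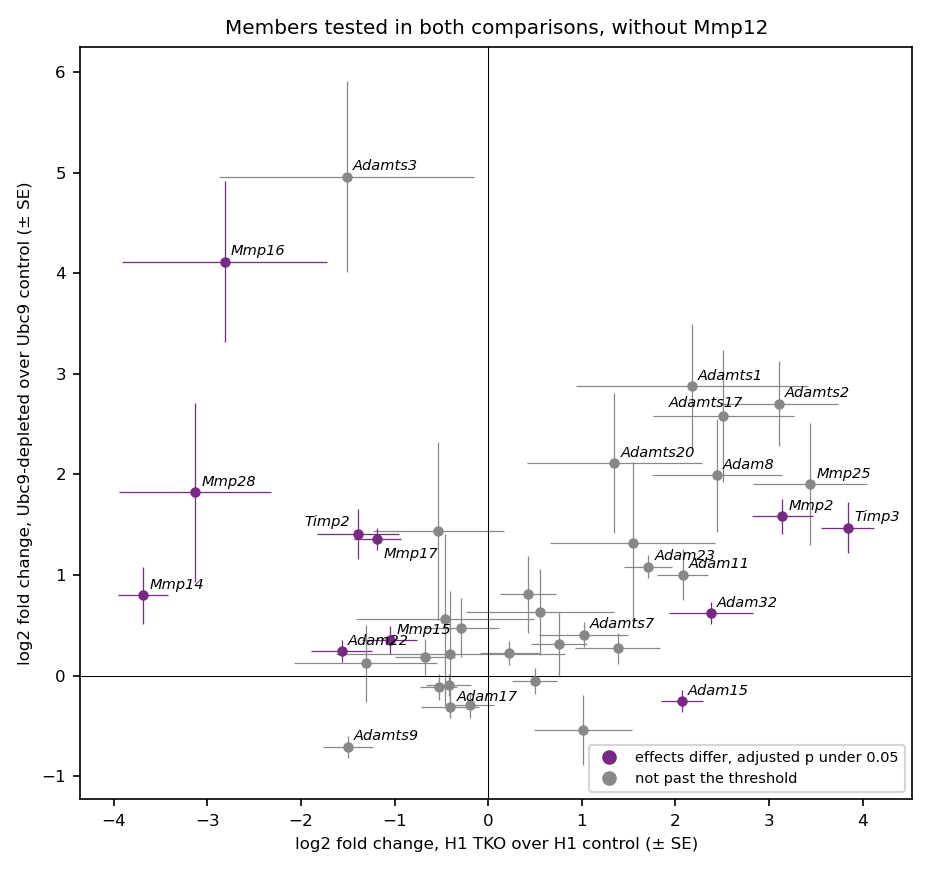
Log2 fold changes of members tested in both comparisons, without Mmp12, for Ubc9-depleted over control (vertical) and H1 TKO over control (horizontal), each ± SE, with members whose effects differ by edgeR's interaction test in purple. Mmp14, Mmp16, Mmp17, Mmp28 and Timp2 lie upper left and Timp3, Mmp2 and Adam32 far to the right.

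Genes that work with these enzymes were read from lists of general knowledge, beside 21.1% of all genes called higher and 15.0% lower in the Ubc9 comparison, and 8.59% and 8.43% in the H1 comparison. Plasminogen activation genes gave 3 higher and 1 lower of 7 tested in the Ubc9 comparison, and 3 higher and 1 lower of 8 in the H1 comparison. The tissue activator Plat and the inhibitor Serpine2 were higher in both. Serpine2 had 13.5 and 14.8 CPM in Ubc9-depleted cells, against 5.61 and 5.14 CPM in Ubc9 control cells, and 10.9 and 10.6 CPM in H1 TKO cells, against 4.79 and 4.46 CPM in H1 control cells. Of the proprotein convertases, which process MMP, ADAM and other proenzymes, 2 were higher and 2 lower of 8 in the Ubc9 comparison and 0 higher and 3 lower of 8 in the H1 comparison. Of those higher, Pcsk4 had 2.92 and 0.314 CPM in Ubc9-depleted cells, against 0.298 and 0.380 CPM in Ubc9 control cells, so its groups overlapped. Furin had 25.4 and 24.5 CPM in Ubc9-depleted cells, against 34.05 and 34.8 CPM in Ubc9 control cells (-0.47 ± 0.11, adjusted p 0.00128 in edgeR's quasi-likelihood test).

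Partners of Adam10 and Adam17 gave 0 higher and 1 lower (Tspan14) of 9 tested in the Ubc9 comparison, and 0 higher and 1 lower (Tspan15) of 8 in the H1 comparison. The related astacin proteinases and their enhancers gave 4 higher and 1 lower of 6 in the Ubc9 comparison, and 1 higher and 2 lower of 6 in the H1 comparison. Mep1b, the beta subunit of meprin, had 176 and 198 CPM in Ubc9-depleted cells, against 36.2 and 36.4 CPM in Ubc9 control cells (2.37 ± 0.12, adjusted p 3e-15 in edgeR's quasi-likelihood test). It had 61.2 and 62.5 CPM in H1 TKO cells, against 6.42 and 5.10 CPM in H1 control cells (3.42 ± 0.22, adjusted p 0.000494 in edgeR's quasi-likelihood test). Other inhibitors and inducers gave 2 higher and 1 lower of 7 in the Ubc9 comparison and 1 and 0 of 7 in the H1 comparison. ADAMTS-like proteins, which resemble ADAMTS enzymes but have no protease domain, gave 3 higher and 0 lower of 6 in the Ubc9 comparison and 0 called of 4 in the H1 comparison by edgeR. Of the proteoglycans and link proteins that ADAMTS enzymes meet, 3 were higher and 1 lower of 6 in the Ubc9 comparison, and 0 higher and 1 lower of 6 in the H1 comparison. Versican (Vcan) was the lower one in both, at 73.8 and 80.3 CPM in Ubc9-depleted cells, against 99.8 and 96.3 CPM in Ubc9 control cells.

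The AP-1 genes, whose motif stands in the promoters printed above, gave 3 higher and 0 lower of 6 in the Ubc9 comparison and 1 higher and 1 lower of 5 in the H1 comparison. Jun was higher in both, at 14.6 and 9.36 CPM in Ubc9-depleted cells, against 5.30 and 4.32 CPM in Ubc9 control cells, and 11.8 and 9.93 CPM in H1 TKO cells, against 2.20 and 3.43 CPM in H1 control cells. Fos was higher in Ubc9-depleted cells, at 3.70 and 2.34 CPM, against 0.895 and 0.891 CPM in Ubc9 control cells. Jund was lower in H1 TKO cells, at 41.8 and 37.4 CPM, against 166 and 226 CPM in H1 control cells. No test linked these levels to the members. Without Ubc9-depleted library 1, where 19.0% of all genes were higher, the higher ones were 3 of 7 plasminogen activation genes, 2 of 8 convertases, 1 of 8 partners of Adam10 and Adam17 and 4 of 6 astacin genes. They were also 2 of 7 inhibitors and inducers, and 2 of 6 each of ADAMTS-like, proteoglycan and AP-1 genes.

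Markers of other cell types were read against the same shares of all genes. Of 12 fibroblast markers 11 were tested in the Ubc9 comparison, 7 were higher and 0 lower, and they summed to 71.4 and 67.4 CPM in Ubc9-depleted cells, against 38.9 and 37.9 CPM in Ubc9 control cells. In the H1 table they summed to 14.7 and 13.6 CPM in H1 TKO cells, against 16.7 and 25.4 CPM in H1 control cells, with 0 higher and 1 lower of 5 tested. Without Ubc9-depleted library 1, 9 of 11 fibroblast and 4 of 8 primitive endoderm markers were higher. Primitive endoderm markers gave 5 higher and 1 lower of 8 in the Ubc9 comparison, with sums of 497 and 594 CPM in Ubc9-depleted cells, against 641 and 599 CPM in Ubc9 control cells. In the H1 comparison 1 of 6 was higher and 0 lower, with sums of 1596 and 1755 CPM in H1 TKO cells, against 919 and 1172 CPM in H1 control cells. The 10 ES cell markers were detected in every library. By edgeR they gave 1 higher and 1 lower of 10 in the Ubc9 comparison, and 1 higher and 0 lower of 10 in the H1 comparison. Their sum was 5269 and 5345 CPM in Ubc9-depleted cells, against 5612 and 5831 CPM in Ubc9 control cells, and 11721 and 11607 CPM in H1 TKO cells, against 6391 and 6966 CPM in H1 control cells. The part of these markers in the members' differences was not tested.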

How the data were processed

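Counts per gene were analysed as the authors deposited them, in 1 table for each comparison. The submitters' processing notes name cutadapt, STAR, HTSeq and DESeq2 and the build mm10. Versions, the step of each tool and the strand setting: not given in the sources used here. Libraries were made with ScriptSeq v2 (Ubc9) and Lexogen SENSE V2 (H1) kits, per the labels. Each comparison was fitted on its 4 libraries with edgeR 4.0.16 in R 4.3.3 (filterByExpr, TMM, quasi-likelihood F test, Benjamini-Hochberg over all 16499 and 14800 genes tested, threshold 0.05), and the difference of effects on all 8. RPKM used exonic lengths from GENCODE M21. Promoter windows came from RefSeq (GRCm38.p6), where 49 of 79 members matched. The fit was tested on simulated data. Some genes that the naming rule picked are not reported here. Named genes were all TIMPs and clustered MMPs, the highest and lowest called members with at least 0.5 CPM on average, members called in both comparisons, the most abundant of each subfamily, and the largest changes of each list. The members, lists and tests were chosen with earlier results of these data known. Same-numbered libraries were not paired (residual correlations of 0.0174 and 0.0565). The split by control level, the counts without Mmp12 and the lists without Ubc9-depleted library 1 were added after the data were seen. Alternatives are listed at the end.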

Additional observations from a re-analysis of the deposited data

How the results depend on the processing

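The members called in the Ubc9 comparison (27 higher, 2 lower, without Mmp12) became 11 and 1 with all 8 libraries in 1 fit and 27 and 1 with library totals in place of TMM factors. With 1 library left out they ranged from 11 to 56 higher and from 1 to 5 lower. In the H1 comparison (9 higher, 5 lower) the lower count was 8 with all 8 libraries in 1 fit, and leaving out 1 library gave 8 to 14 higher and 1 to 10 lower. The difference of effects (8 higher, 4 lower) ranged from 5 to 12 higher and from 3 to 10 lower. Where this left 1 library, it was assumed to vary like the other groups. DESeq2 1.42.0, RLE factors and no filter stayed within 1.5 times of each count.

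Library totals moved the median of all genes in the Ubc9 comparison to 0.25 from 0.06 on the log2 scale, and with them the fold changes of Adam19 (0.076), Mmp11 (0.15) and Timp1 (0.10) changed sign there. In the H1 comparison Adam17 ranged from -0.79 to 0.11 and Adamts14 from -0.72 to 0.045 with 1 library left out, positive without H1 control replicate 1 and without H1 TKO replicate 2. None of the 5 values with a changed sign passed the threshold. With all 8 libraries in 1 fit Adam32 in the Ubc9 comparison had an adjusted p of 0.090 in edgeR, and the causes of these changes were not tested. A replicate block gave 25 higher and 3 lower in the Ubc9 comparison and 10 and 6 in the H1 comparison. The share of all genes called with that block is not given here. Over the named genes' alternatives, 533 values kept their direction and side of the threshold, 29 newly passed and 51 no longer passed. Members at or under 3 counts in both groups of a comparison give no fold change at this depth.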
